A study of Mus musculus with 10 samples.

Results

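Oxidative phosphorylation is carried out by 5 protein complexes of the inner mitochondrial membrane, and 51 genes of these complexes were followed in mouse liver. The genes were chosen by symbol alone: names that begin with Nduf, Sdh with a final a to d, Uqcr, Cox followed by 4 to 8, or Atp5, together with Cycs and Cyc1. They are 51 of 7409 genes that could be named on the array, with 25 assigned by name to complex I, 3 to complex II, 5 to complex III, 9 to complex IV and 8 to complex V, and with Cycs for cytochrome c. The gene table holds 98 protein-coding genes that the same symbols match, and the rest were not analysed here.

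The chain begins where complex I takes electrons from NADH and complex II takes them from succinate, and both pass them to ubiquinone. Complex III moves the electrons on to cytochrome c and complex IV to oxygen, and the protons pumped on the way drive complex V, the ATP synthase. All the genes followed here lie in the nucleus, while the remaining core subunits of the same complexes are encoded by mitochondrial DNA, so each complex except complex II is built from both genomes. Liver depends on this chain for the ATP that gluconeogenesis and urea synthesis consume.

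Liver RNA was taken at 23 weeks of age from 10 females, of which 5 were Gyk heterozygous and 5 were wildtype controls labelled C57Bl/6J. Both groups had eaten chow with 4% fat until 11 weeks of age and with 6% fat from then on. Gyk codes for glycerol kinase and lies on the X chromosome, so through X inactivation a heterozygous female liver is known to be a mosaic, with either copy in use from cell to cell. The series calls the heterozygous mice transgenic. The nature of the allele and the strain it was bred on were not given in the sources used here.

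One Illumina bead array was hybridised per mouse and gave a background-subtracted intensity for each of 24048 probes, with array medians between 14.0 and 24.0. Gyk itself, listed as Gk, was measured at 319.7 ± 90.1 (SD, n = 5) in the heterozygous group and 559 ± 209 (SD, n = 5) in the wildtype group. The log2 change was -0.65 with a limma adjusted p of 0.332. A second Gk probe was above noise on 0 arrays. The arrays of Gyk heterozygous replicate 1 and wildtype replicate 1 stood apart from the rest. Across kept probes their correlation with each other was 0.991. Their correlations to the remaining 8 arrays were 0.934 to 0.967, and those among the 8 were 0.965 to 0.990. The number that leads each sample title was 1 or 2 in all heterozygous samples and in wildtype replicates 1 and 2, and 7 in wildtype replicates 3, 4 and 5. The labels do not say what this number stands for. Results are therefore also given without the 2 arrays that stood apart, and from a fit that blocks on the title number. In the blocked fit wildtype replicates 3, 4 and 5 add nothing to the estimated change. That fit sets the 5 heterozygous livers against wildtype replicates 1 and 2 alone, and the array of wildtype replicate 1 stood apart. Replicate numbers follow the order of the labels and carry no meaning. The series counts 10 mice for its 10 samples.

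Of the 51 genes 48 were detected above noise, each on all 10 arrays, and were tested among all 10225 detected probes. The other genes, Sdha, Ndufab1 and Ndufaf6, were above the noise threshold on 0 arrays. Sdha, which codes for the flavoprotein that oxidises succinate, had intensities of -25.1, -8.5, -10.2, -8.7 and -0.8 in heterozygous and of -5.4, -4.2, 1.7, 0.3 and -14.5 in wildtype liver, all near or below background. A dim probe does not by itself show a missing transcript here. Sdhc, Ndufc1 and Atp5md each had a second probe that was above noise on 0 arrays, while the brighter probe of Sdhc had a mean intensity of 5918 and that of Ndufc1 of 3091.

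Before the values, the stretches just upstream of 4 genes are shown. Uqcrc1 and Cox7a2l had the smallest p in each direction, Cycs codes for the mobile carrier between the complexes, and Ndufs3 had the smallest p among the higher genes of complex I. Each run is the 250 bases before the annotated transcription start, 5′ to 3′ on the gene's strand, from RefSeq on GRCm38.p6. Capitals mark letters that match a core of the NRF1 site (GCATGCGC) or of the GABPA site (CCGGAAG). NRF1 and GABPA are factors known to switch on respiratory chain genes.
Uqcrc1, chr9:108936398-108936647, plus strand: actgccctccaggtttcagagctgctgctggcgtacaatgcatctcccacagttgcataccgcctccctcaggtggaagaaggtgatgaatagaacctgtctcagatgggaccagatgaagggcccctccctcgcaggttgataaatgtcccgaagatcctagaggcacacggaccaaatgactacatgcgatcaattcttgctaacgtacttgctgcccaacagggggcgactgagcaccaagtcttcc
Cox7a2l, chr17:83514334-83514583, minus strand: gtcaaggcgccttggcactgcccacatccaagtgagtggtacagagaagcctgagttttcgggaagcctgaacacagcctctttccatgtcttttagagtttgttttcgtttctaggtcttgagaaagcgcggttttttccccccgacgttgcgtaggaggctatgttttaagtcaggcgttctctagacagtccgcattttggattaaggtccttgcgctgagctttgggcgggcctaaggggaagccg
Cycs, chr6:50566570-50566819, minus strand: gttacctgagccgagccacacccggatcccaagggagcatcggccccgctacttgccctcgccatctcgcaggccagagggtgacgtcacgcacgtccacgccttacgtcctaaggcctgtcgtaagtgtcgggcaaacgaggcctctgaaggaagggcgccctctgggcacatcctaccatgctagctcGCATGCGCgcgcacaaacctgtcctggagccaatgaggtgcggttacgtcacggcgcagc
Ndufs3, chr2:90904722-90904971, minus strand: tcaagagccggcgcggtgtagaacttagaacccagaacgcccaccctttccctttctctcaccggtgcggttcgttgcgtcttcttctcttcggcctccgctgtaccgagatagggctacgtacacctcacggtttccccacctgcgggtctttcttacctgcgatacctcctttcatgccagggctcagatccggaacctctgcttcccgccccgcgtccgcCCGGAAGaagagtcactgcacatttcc

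The NRF1 letters of Cycs begin 60 bases before the start and the GABPA letters of Ndufs3 begin 27 bases before it. Neither motif nor a core of the YY1 site (AAGATGGCG) was found in the windows of Uqcrc1 and Cox7a2l. Promoter windows were matched for 42 of the 51 genes, and both strands were searched. The NRF1 letters were in 8 of the 42 windows (19.0%), against 626 of 27025 windows (2.32%) of all genes. The GABPA letters were in 7 of 42 (16.7%), against 7.05% of all windows, and the YY1 letters in 0 of 42, against 0.607%. The NRF1 windows belonged to Atp5g2, Atp5k, Cox6a1, Cycs, Ndufa11, Ndufa6, Ndufaf4 and Sdhb. A match is a run of letters, not a measured site, and the NRF1 letters were chosen after the sequences were seen.

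The comparison of heterozygous with wildtype liver asked whether transcripts of the respiratory chain differ when 1 copy of Gyk is altered. None of the 48 genes passed, where a pass is an adjusted p under 0.05: limma gave 0 of 48, as it gave 0 of all 10225 probes, a share of 0%. At an unadjusted p under 0.05 there were 3 genes of 48 (6.25%), against 11.9% of all probes. Cox7a2l and Cyc1 had higher means in heterozygous liver, 2 of 48 against 7.26% of all probes, and Uqcrc1 a lower one, 1 of 48 against 4.68%. Scaling arrays by their medians, or using the deposited values without normalization, gave a split of 1 higher and 5 lower, 12.5% of the 48 against 12.3% and 12.6% of all probes. The groups were without overlap for 0 of 48 genes, against 1.77% of all probes. In whole liver, fewer cells of a type and less RNA per cell cannot be told apart.

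By complex, the median log2 change from wildtype to heterozygous liver was 0.02 in complex I (13 genes higher and 10 lower), 0.03 in complex II (1 and 1), 0.08 in complex IV (7 and 2) and 0.03 in complex V (6 and 2). Complex III differed in its median, 0.32, from 3 genes higher and 2 lower that spanned -0.26 to 0.39. This median was 0.16 without wildtype replicate 4 and -0.07 with a block for the title number. Over all 48 genes the median was 0.05, with 30 genes higher, beside a median of -0.01 and 46.5% higher over all probes. Median scaling moved the median over all 48 genes to -0.000975, beside -0.00994 for all probes, and the deposited values moved it to -0.0256, beside -0.0346. The sign of the median thus depended on the scaling, while it lay slightly above that of all probes in each of these settings. With a block for the title number the order was reversed. The median over the 48 genes was then 0.009, below the 0.025 of all probes, and 26 genes were higher. The difference between complexes was not tested.

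**Figure D1:**
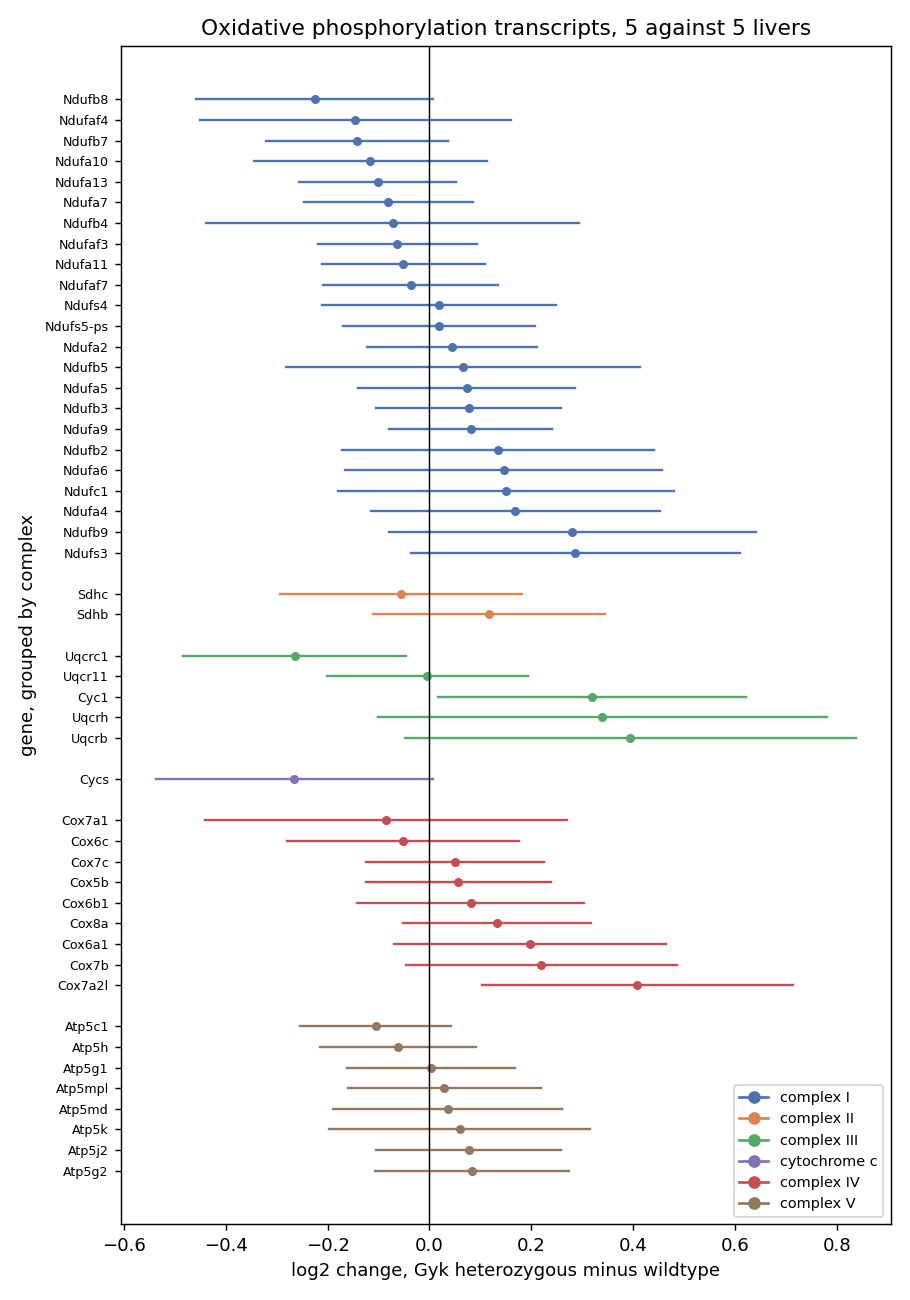
Log2 change (heterozygous minus wildtype, x axis) of the 48 detected genes, grouped by complex, with points for the limma estimate and bars for the 95% interval. All bars except those of Uqcrc1, Cyc1 and Cox7a2l cross 0, and the genes of complex III spread from -0.26 (Uqcrc1) to 0.39 (Uqcrb).

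Complex III held members on both sides of 0. Uqcrc1, a core protein that faces the matrix, had intensities of 8871, 7636, 8367, 9956 and 10587 in heterozygous replicates 1 to 5, and of 10643, 12516, 9859.5, 12666 and 12214 in wildtype replicates 1 to 5. The 3 lowest values were heterozygous, and the lowest wildtype value lay below the 2 highest heterozygous ones. The log2 change of Uqcrc1 was -0.26 (SE 0.10), with a limma adjusted p of 0.353 and a two-sided exact permutation p of 0.0317.

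Cyc1, the cytochrome c1 that hands electrons to cytochrome c, had intensities of 2932, 3134, 2780.0, 2895 and 2882 in heterozygous and of 3528, 2769.8, 2145, 1863 and 2036 in wildtype liver. The heterozygous livers were close together, and wildtype replicates 3, 4 and 5 lay below every other liver. The log2 change of Cyc1 was 0.32 (SE 0.14), with a limma adjusted p of 0.392 and an exact permutation p of 0.0714. Uqcrh, the hinge protein that helps cytochrome c1 bind cytochrome c, ran from 9480.5 to 11477 in heterozygous and from 5119 to 13219 in wildtype liver. As for Cyc1, wildtype replicates 3, 4 and 5 had the lowest intensities of Uqcrh, and wildtype replicate 1 the highest. Its log2 change was 0.34 (SE 0.20) and its limma adjusted p 0.533.

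Uqcrb, a small subunit near the ubiquinone site, had intensities of 1619, 916, 1340.3, 1154 and 1338 in heterozygous and of 1566, 676, 1102, 868.4 and 763 in wildtype liver. The groups overlapped widely, and the log2 change of 0.39 (SE 0.20) had a limma adjusted p of 0.465. Uqcr11, the smallest subunit of complex III, had a log2 change of -0.00 (SE 0.09).

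Cycs, the soluble cytochrome c that carries electrons from complex III to complex IV, had intensities of 2284, 2513, 2232, 2136 and 2015 in heterozygous and of 3179.5, 2152, 2935, 3084 and 2504 in wildtype liver. Wildtype replicate 2 lay among the heterozygous livers, and 3 wildtype livers lay above all of them. The log2 change of Cycs was -0.26 (SE 0.12), with a limma adjusted p of 0.424 and an exact permutation p of 0.0794. Its sign was thus opposite to that of Cyc1, the partner that donates its electrons.

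**Figure D2:**
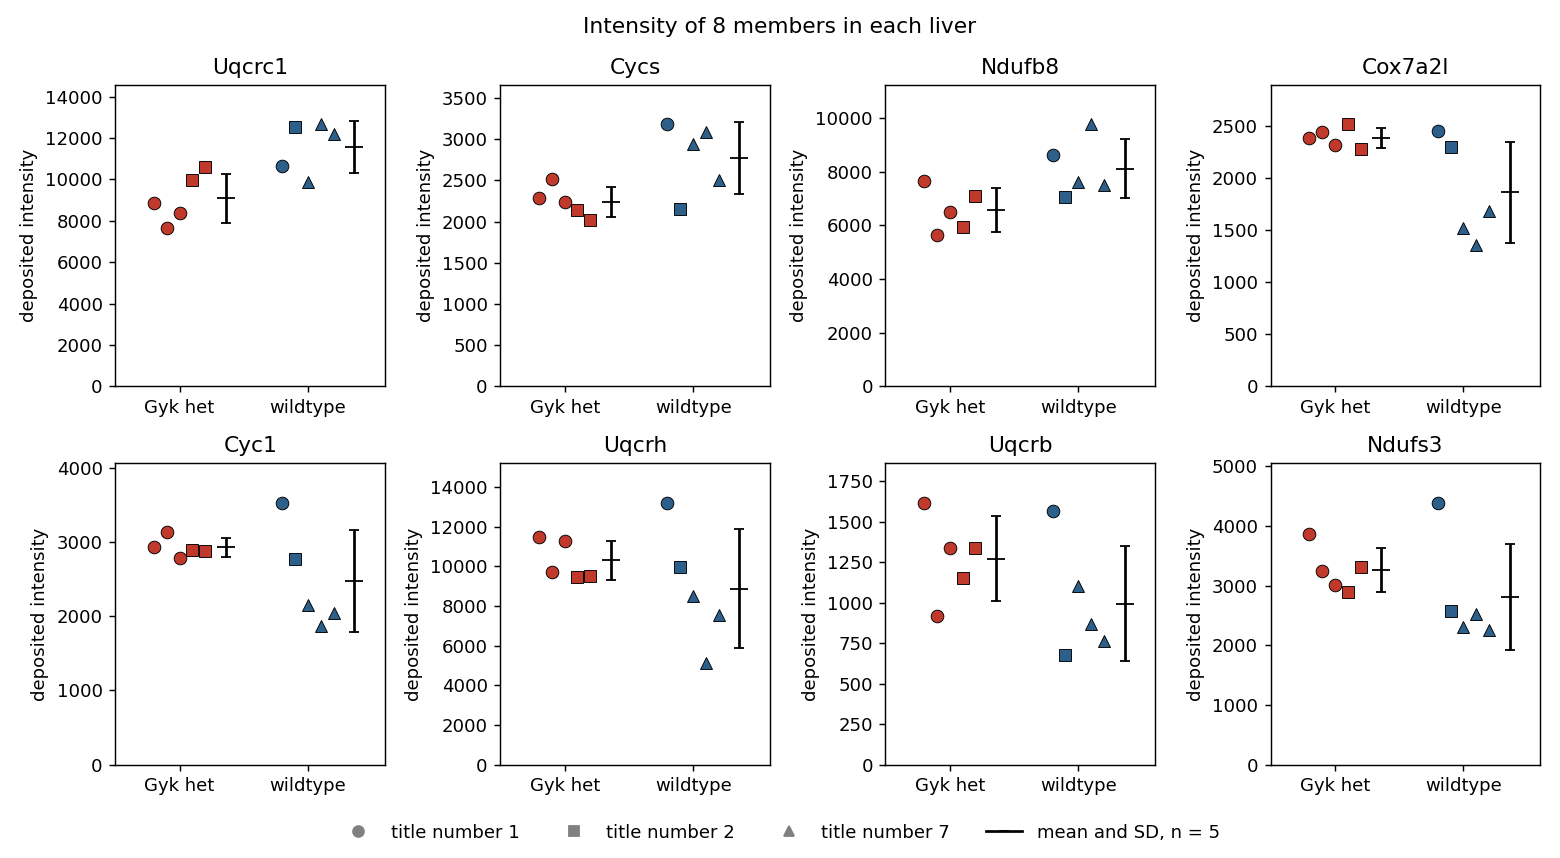
Deposited intensity (y axis, from 0) of 8 genes in each liver, with symbols for the number that leads the sample title and bars for the mean and SD of 5 livers. For Cox7a2l and Cyc1 the 3 wildtype livers with title number 7 lie below the other 7 livers, while for Uqcrc1 and Cycs the groups overlap and the wildtype mean is the higher.

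In complex IV Cox7a2l had the smallest p of all 48 genes. It codes for a relative of the complex IV subunit COX7A2, and what its protein does in these livers was not tested. Its intensities were 2379.9, 2439, 2320.0, 2515 and 2274 in heterozygous and 2445, 2299.9, 1522, 1356 and 1681 in wildtype liver. Wildtype replicates 1 and 2 lay within the range of the heterozygous livers, and wildtype replicates 3, 4 and 5 lay far below it. The log2 change of Cox7a2l was 0.41 (SE 0.14), with a limma adjusted p of 0.338 and an exact permutation p of 0.0397.

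Cox7b, a structural subunit whose gene lies on the X chromosome like Gyk, was dim. Its intensities were 138, 74.1, 102, 89.6 and 105 in heterozygous and 50.2, 61.0, 109.6, 89.0 and 68.4 in wildtype liver. The groups overlapped, with a log2 change of 0.22 (SE 0.12) and a limma adjusted p of 0.50.

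Of the subunits with a muscle-type counterpart, Cox6a1 and Cox8a, the forms that liver uses, were bright. Cox6a1 had intensities of 13161, 9264, 11821, 10595 and 12689 in heterozygous and of 13905, 11568, 9412.5, 9578 and 8407 in wildtype liver, with a log2 change of 0.20 (SE 0.12, limma adjusted p 0.549). Cox8a had 10360.1, 8195, 11522, 10054 and 11153 in heterozygous and 10994, 10135, 8935, 9158 and 9194 in wildtype liver, with a log2 change of 0.13 (SE 0.08, limma adjusted p 0.562). For both genes the lowest heterozygous liver was replicate 2, and the groups overlapped over most of their range.

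Cox7a1, the form typical of heart and skeletal muscle, had intensities of 118, 185, 129, 227 and 126 in heterozygous and of 223, 108, 221, 156 and 132 in wildtype liver. Its probe was above noise on all 10 arrays. Myh6, the only 1 of 8 listed muscle markers with a named probe, was above noise on 0 arrays. Which cells held the Cox7a1 transcript was not tested. The groups covered nearly the same range, and the log2 change of Cox7a1 was -0.09 (SE 0.16, limma adjusted p 0.881). Cox6b1, the body-wide form of a subunit that has a testis form, had 9049.6, 7797, 8696, 7905 and 8028 in heterozygous and 10804, 8546, 7615, 8319.8 and 6739.9 in wildtype liver. The wildtype livers enclosed the heterozygous ones, and the log2 change of Cox6b1 was 0.08 (SE 0.10). The remaining complex IV genes, Cox5b, Cox7c and Cox6c, had log2 changes of 0.06, 0.05 and -0.05.

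In complex I, Ndufb8, a subunit of the membrane arm, had intensities of 7639.9, 5654, 6491, 5939 and 7088 in heterozygous and of 8643, 7065, 7635, 9769.7 and 7491 in wildtype liver. Wildtype replicates 2, 3 and 5 lay below the highest heterozygous liver, and the log2 change was -0.23 (SE 0.11) with a limma adjusted p of 0.429. Ndufs3, a core subunit of the arm that carries the iron-sulfur chain, had 3858, 3242, 3013, 2889 and 3308 in heterozygous and 4389.6, 2570.3, 2313, 2529.6 and 2253 in wildtype liver. All heterozygous livers lay above wildtype replicates 2 to 5 and below wildtype replicate 1. The log2 change of Ndufs3 was 0.29 (SE 0.15), with a limma adjusted p of 0.467.

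Ndufb7, another membrane arm subunit, had intensities of 329.8, 341, 375, 375 and 387 in heterozygous and of 439, 451, 409.8, 357 and 362 in wildtype liver. Wildtype replicates 1, 2 and 3 lay above every heterozygous liver, and the log2 change of Ndufb7 was -0.14 (SE 0.08, limma adjusted p 0.519). Ndufa4, named for complex I but known today as a subunit of complex IV, had 11149, 9203, 9389, 8479 and 8328 in heterozygous and 12091, 8655, 7686, 8721 and 7092 in wildtype liver. The wildtype livers held both the highest and the lowest value, and the log2 change of Ndufa4 was 0.17 (SE 0.13, limma adjusted p 0.641). The genes named for complex I were also counted without assembly factors and without a pseudogene, with Ndufa4 still included. Of these, 12 of 19 had higher and 7 lower means in heterozygous liver, with a median of 0.07. The assembly factors Ndufaf3, Ndufaf4 and Ndufaf7, which build the complex without staying in it, had log2 changes of -0.06, -0.15 and -0.04.

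The other genes named for complex I had log2 changes between -0.12 (Ndufa10) and 0.28 (Ndufb9). Those above 0 were Ndufb9, Ndufc1, Ndufa6, Ndufb2, Ndufa9, Ndufb3, Ndufa5, Ndufb5, Ndufa2, Ndufs4 and Ndufs5-ps. Those below 0 were Ndufa10, Ndufa13, Ndufa7, Ndufb4 and Ndufa11. The gene table calls Ndufs5-ps a pseudogene, and whether its probe measured the transcript of Ndufs5 was not tested. Respiratory chain genes have many processed copies in the genome, from which the probes were not told apart.

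Complex II, the link between the citric acid cycle and the chain, was measured by Sdhb and Sdhc. Sdhb, its iron-sulfur subunit, had intensities of 4968, 3810.2, 4139.5, 4439 and 5178 in heterozygous and of 5489, 4196, 3533, 4741 and 3892 in wildtype liver. Its log2 change was 0.12 (SE 0.10, limma adjusted p 0.695), and the groups overlapped throughout. Sdhc, which anchors the complex in the membrane, had 4598, 5203, 6711, 6071 and 6035 in heterozygous and 5556, 6139, 5859.6, 6540.3 and 6471 in wildtype liver. The heterozygous livers enclosed the wildtype ones, and the log2 change of Sdhc was -0.06 (SE 0.11, limma adjusted p 0.884).

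Complex V stayed within a narrow band, from -0.11 for Atp5c1 to 0.08 for Atp5g2. Atp5c1 codes for the gamma subunit, the shaft that turns inside the catalytic head. Its intensities were 6546, 6164, 7299, 6376 and 6586 in heterozygous and 7595, 7638, 7229, 7838 and 7696 in wildtype liver, so only heterozygous replicate 3 reached the wildtype range. The log2 change after normalization was -0.11 (SE 0.07), with a limma adjusted p of 0.567 and an exact permutation p of 0.0397. It was -0.20 with the deposited values left without normalization.

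Atp5g1 and Atp5g2 code for the same mature subunit c of the membrane ring. Atp5g1 had intensities of 5447, 5299.8, 6406, 5579 and 6673 in heterozygous and of 6453, 6775, 5461, 5959 and 5878 in wildtype liver, with a log2 change of 0.00 (limma adjusted p 0.991). Atp5g2 had 1266, 1373, 1714, 1311 and 1415 in heterozygous and 1444, 1477, 1200.4, 1302 and 1406 in wildtype liver, with a log2 change of 0.08 (SE 0.09). Neither gene separated the groups.

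Atp5j2, the f subunit, had intensities of 16161, 15912, 17452, 16778 and 17535 in heterozygous and of 18199, 20779.8, 15383, 15828 and 17541 in wildtype liver. Its log2 change was 0.08 (SE 0.08), although its mean intensity before normalization was lower in heterozygous liver, 16768 against 17546. Atp5h, the d subunit of the stalk, had a log2 change of -0.06, and the small membrane subunits Atp5k, Atp5md and Atp5mpl had 0.06, 0.04 and 0.03.

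**Figure D3:**
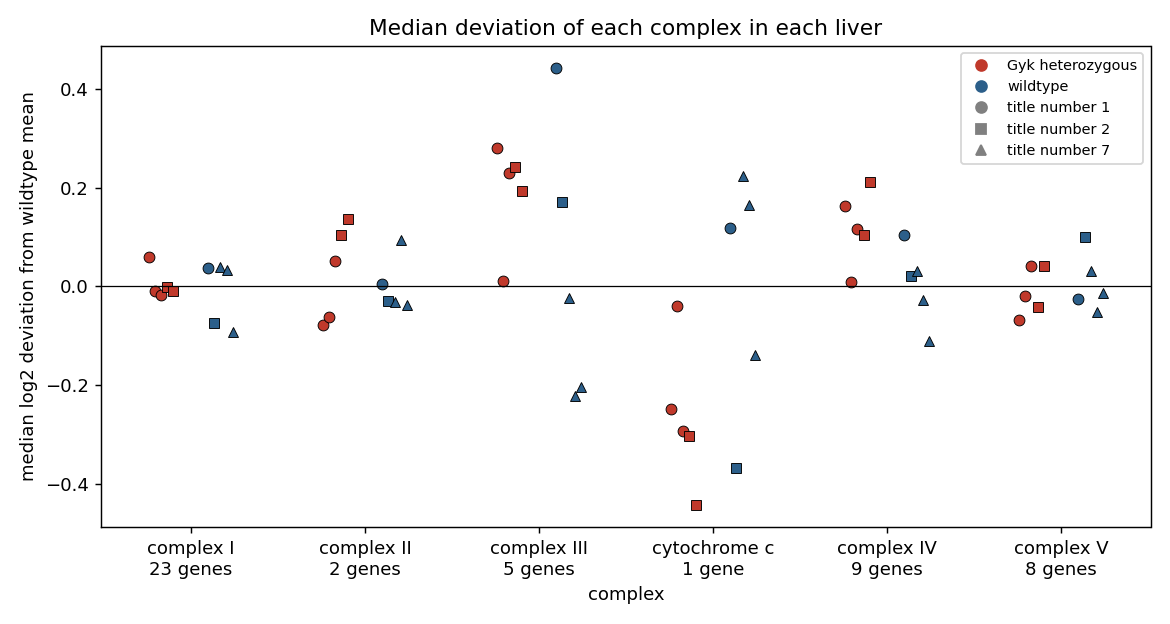
Median over the detected genes of each complex of the log2 deviation from the wildtype mean (y axis), 1 point per liver, coloured by group and shaped by title number. Complex III runs in wildtype liver from -0.22 to 0.44 and in heterozygous liver from 0.01 to 0.28, while complexes I and V stay within 0.10 of 0 in every liver.

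The spread among wildtype livers was widest in complex III. The SD of normalized log2 values among wildtype livers had a median of 0.32 over its 5 genes, against 0.13 in complex I, 0.21 in complex IV and 0.10 in complex V. Among heterozygous livers the median SD for complex III was 0.13. Over all detected probes the median SD was 0.20 among wildtype and 0.15 among heterozygous livers. The widest spread of a single gene was that of Uqcrh, with an SD of 0.49 among wildtype and 0.13 among heterozygous livers.

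The difference in Cox7a2l, Cyc1 and Uqcrh moved with the title number. Once the fit blocked on the title number, the log2 change was 0.08 for Cox7a2l, 0.00 for Cyc1 and -0.07 for Uqcrh, and the median of complex III was -0.07. Ndufs3 had 0.02, Uqcrb 0.27, Uqcrc1 -0.17 and Cycs -0.17. Within title number 1, heterozygous minus wildtype gave 0.06 for Cox7a2l, -0.12 for Cyc1 and -0.17 for Uqcrc1, and within title number 2 it gave 0.09, 0.14 and -0.18. Cox7a2l and Uqcrc1 thus each had the same sign within both numbers, as did other genes of the 48, such as Cox7b and Ndufb7. Each of these values rests on a single wildtype liver, and in title number 1 that is replicate 1, whose array stood apart.

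With the block 2 of 48 genes, Cox7b (0.45) and Ndufb2 (0.38), had an unadjusted p under 0.05, against 4.95% of all probes, and the smallest limma adjusted p was 0.909. Of the 48 genes 14 changed sign under the block. Title number 7 occurs in wildtype livers alone, so in those 3 livers the number and the genotype cannot be told apart. The changes with the block therefore rest, on the wildtype side, on replicates 1 and 2 alone.

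**Figure D4:**
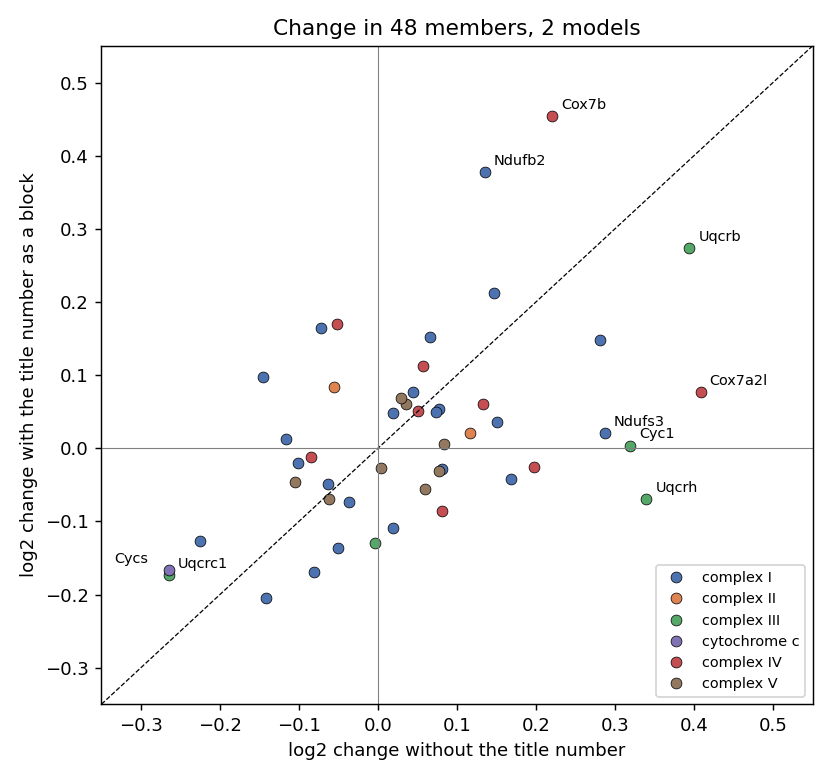
Log2 change of the 48 genes without the title number (x axis) and with it as a block (y axis), coloured by complex, with a dashed line where both are equal. Cox7a2l, Cyc1, Uqcrh and Ndufs3 move from 0.29 to 0.41 on the x axis to between -0.07 and 0.08 on the y axis, while Cox7b moves up from 0.22 to 0.45.

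Without the 2 arrays that stood apart, 1 of 48 genes passed (2.08%), against 2.13% of all probes. This was Ndufs3, with a log2 change of 0.38 and a limma adjusted p of 0.0498. At an unadjusted p under 0.05 there were 6 genes higher and 2 lower in these 8 livers, 16.7% of 48, against 20.8% of all probes. The higher genes were Ndufs3, Ndufb9, Cyc1 (0.43), Uqcrb (0.47), Uqcrh (0.44) and Cox7a2l (0.49), and the lower ones Uqcrc1 (-0.31) and Ndufb8 (-0.28). Without wildtype replicate 1 alone, Ndufs3 also passed, at a log2 change of 0.43 and an adjusted p of 0.0328, and it was the only one of the 48, against 4.26% of all probes. With array weights Cox7a2l passed (0.49, adjusted p 0.0369), 1 of 48 against 4.01% of all probes. None of these settings includes the title number. With wildtype replicate 1 left out, the wildtype livers were replicate 2, with title number 2, and replicates 3, 4 and 5, with title number 7. No heterozygous liver has title number 7.

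The precision allowed bounds for most genes. For 42 of 48 genes the 95% interval of the limma fit, not adjusted for their number, lay inside a 1.5-fold change in either direction. The exceptions were Ndufs3, Ndufb9, Cyc1, Uqcrb, Uqcrh and Cox7a2l, with upper bounds of 0.61, 0.64, 0.62, 0.84, 0.78 and 0.71 on the log2 scale. The changes of the fit that blocked on the title number rest, on the wildtype side, on replicates 1 and 2 alone. In that fit 42 genes lay inside the limit, and 38 did so in both fits. The 6 outside it were then Ndufb9, Ndufa6, Ndufb2, Ndufb5, Uqcrb and Cox7b, of which Ndufb2 and Cox7b had upper bounds of 0.68 and 0.74. SEs without the block ran from 0.07 to 0.20. The constant added before log2 pulls the values of dim probes such as Cox7b, Atp5md and Ndufaf7 toward 0.

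Genes with more than 1 detected probe allowed a check within an array. The probes of Cox6a1 gave log2 changes of 0.20 and 0.19, close to each other. Those of Cox6b1 gave 0.08 and -0.11, and those of Ndufs4 0.02 and 0.17, so differences of this size lay within the disagreement of probes. The dimmer probe of Ndufs3, above noise on 8 arrays, gave -0.17 (SE 0.38) beside 0.29 for the brighter one.

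Around the complexes, 12 detected genes for assembly factors, of 16 named and 40 listed, had a median log2 change of 0.06, and 0 passed. At an unadjusted p under 0.05 there were 4 higher and 1 lower of these 12, against 7.26% and 4.68% of all probes. The lower one was Ttc19, which acts on complex III, at -0.28. Acad9, which helps build complex I, had mean intensities of 466 ± 75.2 and 308 ± 102.7 (SD, n = 5 each, heterozygous first). Its log2 change was 0.49 with a limma adjusted p of 0.332. Slirp, which with its partner LRPPRC keeps mitochondrial messenger RNA stable, had 0.27, and Cox16, which helps build complex IV, had 0.40. Blocking on the title number, these became 0.17, 0.12 and 0.10, and 0 of 12 had an unadjusted p under 0.05.

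The citric acid cycle had 6 detected genes, 1 higher and 5 lower, with a median of -0.10. Dlst, a subunit of the oxoglutarate dehydrogenase complex, had the smallest p in that list, with a log2 change of -0.16 and a limma adjusted p of 0.443, and Idh3b had a log2 change of -0.09. Other donors of electrons to ubiquinone had 4 detected genes with a median of -0.13, among them Gpd2, which feeds in electrons from glycerol phosphate, at -0.33, Prodh at -0.24 and Etfa at 0.14. Ubiquinone synthesis was measured by Coq5 at -0.09 and Coq10b at 0.23, and regulators of mitochondrial biogenesis by Ppargc1b at -0.09 and Gabpb1 at -0.04. Among 5 detected genes for exchange of ADP, ATP and phosphate, Slc25a5, an ADP/ATP carrier, had 0.21 and Vdac1, a pore of the outer membrane, had -0.05. None of these passed, and none had an unadjusted p under 0.05 with the title number as a block. With that block the median was -0.02 for the citric acid cycle, 0.03 for the other donors and 0.08 for the regulators. Without the 2 arrays that stood apart these medians were -0.08, -0.15 and -0.03.

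Markers of hepatocytes were present throughout. Of 10 listed genes 3 had a named probe, for Apoa1, Apoc3 and Ass1, and these were detected on all arrays. Their deposited intensities summed to 94829 to 121733 in heterozygous and 117387 to 131936 in wildtype liver. After normalization their log2 changes were -0.006, -0.006 and -0.061, with 0 passing. Kupffer cell markers were higher in heterozygous liver for 4 of 4 detected genes, with a median of 0.27 and 0 passing, and sums of 1223 to 2452 against 965.5 to 2667. Without the 2 arrays that stood apart 2 of these 4 were higher, with a median of 0.09. With a block for the title number 4 of 4 were higher, with a median of 0.21. Both erythroid genes were lower, with sums of 7172 to 12740 against 7893 to 31945. Without the 2 arrays both were again lower, with a median of -0.44. With a block for the title number both were higher, Hba-a1 at 0.38 and Hbb-b1 at 0.01. Of 3 stellate cell genes 1 was higher and 2 lower, of 2 endothelial genes 2 were higher (1 with the block and 1 without the 2 arrays), and lymphocyte genes were split 1 and 1. The only detected gene for cholangiocytes, Spp1, had a log2 change of -0.11 (0.18 with the block), with Krt19 above noise on 0 arrays. The only one for adipocytes, Fabp4, had -0.08, and 0 genes for pancreas and gut were kept. Among these lists Csf1r, a Kupffer cell gene, and Dcn, a stellate cell gene, alone had an unadjusted p under 0.05, and 0 passed. The part of these cells in the values above was not tested.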

How the data were processed

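Liver RNA was copied to biotinylated cRNA and hybridised to Illumina bead chips, per the labels' protocols. The values the authors deposited are linear intensity, with a background subtracted (31.1% to 33.1% of values below 0), made with BeadStudio 1.5.1.3 per the submitters' processing notes. Whether the authors normalized arrays to each other is not given in the sources used here. A second, un-normalized table, on 2 chips with 8 and 2 arrays, has 80 columns that no label ties to samples, and these were not used.

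A constant of 95.2 was added to every intensity, which made the smallest 16, and the log2 values were quantile normalized (limma 3.58.1, R 4.3.3). A probe counted as detected above 1.64 times its array's noise, the root mean square of values below 0 (thresholds 22.0 to 41.2), and probes detected on at least 5 of 10 arrays were kept. Probes were named by matching the number in their identifier to gene IDs of GRCm38.p6, which named 8884 probes, and the brightest probe stood for a gene. That this number is a gene ID is an inference. Groups were compared with limma's moderated test (two-sided, Benjamini-Hochberg over 10225 probes, threshold 0.05), and single genes also by exact permutation over 252 assignments, whose smallest p is 0.00794. The fit was tested on simulated data with independent noise, no arrays that stood apart and no effect of the title number.

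Values were described in full for up to 3 genes per complex with the smallest p and for 27 subunits fixed by name, of which 12 had a named probe. Uqcrh, Ndufb9, Ndufb2 and, outside the complexes, Ttc19 were added after their values were seen. Genes and lists were chosen with earlier results of these data known. Alternatives tried were median scaling, cyclic loess or no normalization between arrays, normexp, a smallest value of 50, no filter, detection on all arrays, the title number as a block, array weights, the mean of a gene's probes, and leaving out samples. Some genes of the related lists are not reported here.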

Additional observations from a re-analysis of the deposited data

Results flagged for a closer look

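Of 52 sets of 5 values tested for a sample far from the others, 2 stood out, and chance alone would flag about 1 in 20. The log2 value of Ndufs3 in wildtype replicate 1 was 12.02, while the other wildtype livers lay between 11.19 and 11.35. The median log2 deviation of complex I in Gyk heterozygous replicate 1 was 0.0598, while the other heterozygous livers lay between -0.0182 and -0.0004. Both samples are those whose arrays stood apart from the other 8.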

How the results depend on the processing

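The number of arrays limits the precision, and for dim probes the added constant does. Chip as a block was not run, because no label ties a chip to a sample. Over 21 alternatives the count of genes that passed stayed at 0 in 18 and was 1 with array weights, without both replicates 1 and without wildtype replicate 1. Leaving out 1 sample at a time gave 0 to 1 genes that passed, 1 to 8 higher and 0 to 3 lower at an unadjusted p under 0.05, beside 2 and 1 in all samples. The higher count was 1 with median scaling, cyclic loess and the deposited values, 7 with array weights and 6 without both replicates 1. The lower count was 5 with median scaling and the deposited values, 2 without a filter and without both replicates 1, 0 when the title number was the block, and 3 with array weights. Over both directions this was 20.8% of genes with array weights, against 22.9% of all probes, and 20.8% against 23% without wildtype replicate 1, where the higher count was 8. With cyclic loess it was 4.17% of genes against 12.1% of all probes, and without a filter 7.84% against 7.95%. Median scaling gave a median over all genes of -0.000975, and the deposited values gave -0.0256. With the deposited values it was -0.0325 for complex I, -0.00369 for complex IV and -0.0493 for complex V, and for complex V it was -0.0246 with median scaling. Without a filter complex II had -0.0562. Blocking on the title number gave -0.0695 for complex III and -0.0293 for complex V. The cause of these shifts was not tested.

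Of 20 genes described in full and detected, 13 kept their sign under all 21 alternatives. Atp5g1 was -0.0305 with median scaling, -0.0552 with the deposited values and -0.0267 with the block, and -0.0364 to 0.0329 when 1 sample was left out. Under the same 3 settings Atp5j2 was -0.0332, -0.0579 and -0.0318. Cox6b1 was -0.00369 with the deposited values, -0.0865 with the block and -0.0122 as the mean of its probes. With the block Cox6a1 was -0.0261, Ndufa4 -0.0424 and Sdhc 0.0835, and Sdhc ran from -0.114 to 0.0263 when 1 sample was left out. Cox7a1 was 0.0470 without both replicates 1. Over the alternatives the adjusted p of Ndufs3 ran from 0.0328 to 0.984 and that of Cox7a2l from 0.0369 to 0.919.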
